A study of Mus musculus with 200 samples.

Results

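The Cast allele next to *Pax6* was followed through backcross (N2) embryos, by comparing embryos heterozygous B6/Cast with embryos homozygous B6/B6 at *Rcn1*, a gene between *Wt1* and *Pax6* on chromosome 2. The embryos were chosen by the deposited genotype code of *Rcn1*, 0.5 for heterozygous and 1.0 for homozygous B6, which the authors had derived from allele-specific reads. All 154 N2 embryos with genotypes carried one of these codes, out of 184 embryos in the tables (16 F1 and 168 N2), and 78 were heterozygous and 76 B6/B6. B6 is the inbred strain C57BL/6J, written C57BL6/J in the labels, and Cast is CAST/EiJ, an inbred strain derived from wild *M. m. castaneus*, and both groups were whole E11.5 embryos from backcrosses of untreated F1 (B6/Cast) animals to B6. In B6 × F1 embryos the mother was B6 and the father F1, and in F1 × B6 embryos the mother was F1. Every N2 embryo therefore carried 1 complete B6 genome, and heterozygous embryos differed from their B6/B6 siblings in 1 copy of a long stretch of chromosome 2, not in *Rcn1* alone. Allele-specific reads of chromosome 2 in N2 embryos gave the codes and are described here without a test, whereas total expression was tested.

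RNA had been measured by 3SEQ, a method that sequences the 3′ ends of polyadenylated transcripts, and expression is given as RPM, reads scaled to a common library total of reads counted on genes. Because 7 embryos had no somite number, 147 were fitted, 75 heterozygous (39 B6 × F1 and 36 F1 × B6) and 72 B6/B6 (46 and 26), from 29 litters and 14 sequencing lanes. Heterozygous embryos had 245220 to 5370322 reads with a median of 2333031, and B6/B6 embryos 514626 to 4050831 with a median of 2096104. Mean somite numbers were 49.1 ± 3.25 and 48.5 ± 2.67 (SD, n = 75 and 72). Heterozygous embryos made up between 27.3% and 72.7% of each lane, and *Xist*, which is transcribed from the inactive X chromosome, exceeded 31 RPM in 22 of 75 heterozygous and 32 of 72 B6/B6 embryos.

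*Pax6* encodes a paired-domain transcription factor that is required for eye, brain and endocrine pancreas development, *Wt1* a zinc finger factor of the urogenital ridge and mesothelium, and *Rcn1* a calcium-binding protein of the endoplasmic reticulum. *Elp4*, a subunit of the Elongator complex, runs towards *Pax6* and its introns hold distant enhancers of *Pax6*. A polymorphism that changes expression of the gene copy on its own chromosome acts in cis, and is visible both as an unequal allele ratio in a heterozygote and as a difference in total expression between genotypes. A polymorphism that acts in trans, for instance through a transcription factor, changes both copies of genes elsewhere. In a backcross, neighbouring genes are inherited together, so that a difference by *Rcn1* genotype cannot be assigned to one gene of the stretch.

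The reach of the contrast was read from the codes of other genes. Within 5 Mb of *Rcn1*, called the region here, between 96.1% and 100% of embryos had the same code as at *Rcn1*, and 10 of the embryos carried both codes there. *Pax6* had the same code as *Rcn1* in 100% of embryos. The share fell to 60.4% at the end of chromosome 2, and on the other autosomes it ranged from 41.6% to 60.4% with a median of 50.6%. An effect on chromosome 2 outside the region was therefore partly carried by this contrast. Unlinked genes were close to independent of it at the median, but some shared the code as often as the far end of chromosome 2.

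Total expression was compared with edgeR's quasi-likelihood test on counts, with lane and somite number in the model, over the 10040 genes whose mean reached 5 RPM. A gene was called at a Benjamini-Hochberg adjusted p under 0.05. The test called 40 genes, or 0.398% of those tested, 20 higher and 20 lower in heterozygous embryos. Of the 28 region genes tested, 4 were called, 1 higher and 3 lower. On the rest of chromosome 2, 33 of 792 were called, 17 higher and 16 lower. On other chromosomes it was 3 of 9220, or 0.0325%. Calls thinned out with distance: 9 of 92 genes between 5 and 15 Mb from *Rcn1* were called, 13 of 133 between 15 and 30 Mb, 6 of 134 between 30 and 50 Mb, and 4 of 418 farther away, and *Tspan18* was called without a position. The median absolute log2 difference fell alongside, from 0.13 in the region to 0.07 beyond 50 Mb.

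**Figure D1:**
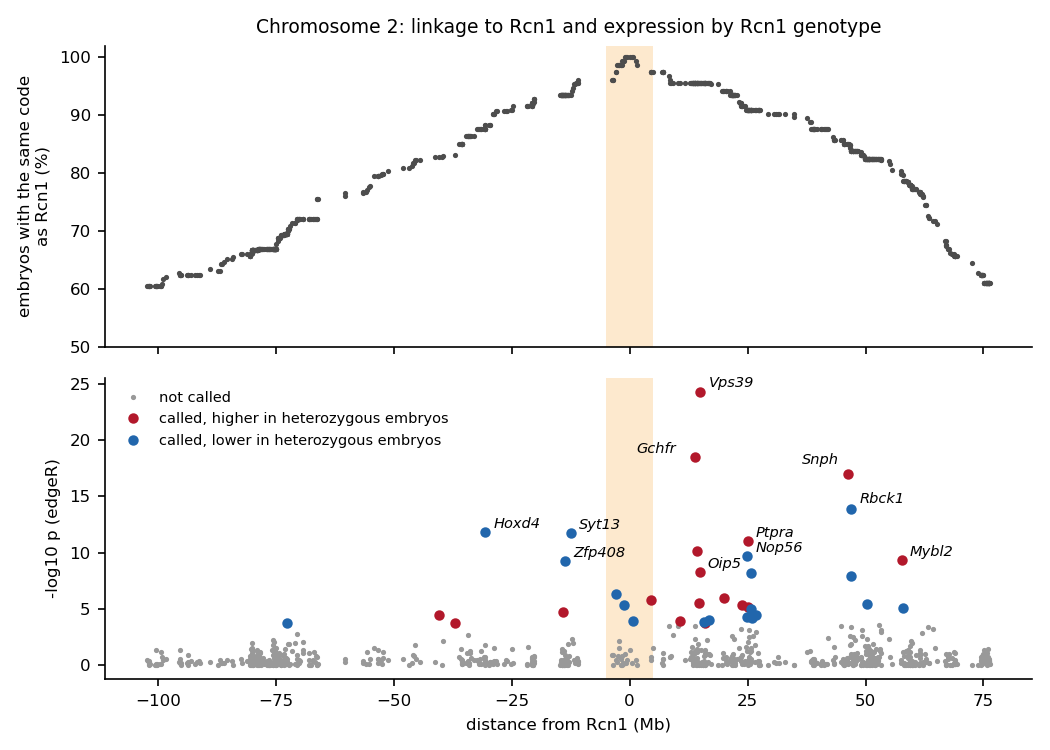
The upper panel plots, for each chromosome 2 gene tested, the percentage of embryos with the same code as *Rcn1*, and the lower panel the −log10 p of edgeR's test by *Rcn1* genotype, both against distance from *Rcn1* in Mb, with the region within 5 Mb shaded. Linkage peaks at 100% and falls to 60.4%, while the smallest p values lie outside the region, at *Vps39*, *Gchfr* and *Snph*.

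The genes that mark the locus did not differ by genotype past the threshold. *Rcn1* (chr2:105226448-105239476, mm9) ranged from 29.1 to 535 RPM in heterozygous embryos, with a median of 89.3, and from 26.5 to 308 RPM in B6/B6 embryos, with a median of 84.96. The groups overlapped almost entirely. Its log2 difference, heterozygous against B6/B6, was 0.17 ± 0.083 (SE), a fold of 1.13 with a 95% interval of 1.01 to 1.26 (edgeR, p = 0.0419, adjusted p = 0.845), and genotype codes permuted within lanes gave p = 0.0835. The difference was 0.30 in B6 × F1 and −0.05 in F1 × B6 embryos, and edgeR's test of the difference between these crosses gave an unadjusted p of 0.0522.

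*Pax6* (chr2:105509053-105543317) was expressed at a mean of 4.05 RPM, below the minimum of the test. It ranged from 0 to 21.7 RPM with a median of 1.66 in heterozygous embryos and from 0 to 24.8 RPM with a median of 1.76 in B6/B6 embryos, and 5 embryos of each genotype had no read. In a fit without the minimum, its log2 difference was 0.15 ± 0.15 (SE), and the 95% interval of the fold was 0.899 to 1.36 (edgeR, p = 0.341). A difference smaller than this interval was not detectable at this depth. *Wt1* (chr2:104966686-105013773) had a mean of 4.55 RPM, medians of 1.89 RPM in heterozygous and 1.46 RPM in B6/B6 embryos, and maxima of 20.3 and 24.2 RPM. Its log2 difference was −0.03 ± 0.17 (SE), with an interval of the fold of 0.776 to 1.24 (edgeR, p = 0.860).

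*Elp4* (chr2:105537477-105744721) had medians of 9.15 RPM in heterozygous and 9.30 RPM in B6/B6 embryos, and a log2 difference of −0.06 ± 0.11 (SE; edgeR, adjusted p = 0.999). The annotated 3′ ends of *Pax6* and *Elp4* overlap on opposite strands by 5841 bases. Whether reads were counted by strand was not given in the sources used here, so reads from this overlap cannot be told apart.

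Among region genes at 5 RPM or more, the smallest p was that of *Fjx1*, which encodes a secreted relative of the *Drosophila* kinase four-jointed. *Fjx1* (chr2:102289525-102291949, at −2.95 Mb from *Rcn1*, where a minus sign marks the *Wt1* side) ranged from 3.93 to 38.05 RPM with a median of 11.4 in heterozygous embryos and from 1.99 to 68.01 RPM with a median of 18.1 in B6/B6 embryos. Only 14 of 75 heterozygous embryos lay above the B6/B6 median, although the ranges overlapped. Its log2 difference was −0.51 ± 0.096 (SE), a fold of 0.703 (edgeR, adjusted p = 0.000287), and p was 1e-05 with permuted genotypes, the smallest value 100000 permutations can give. Permutation p-values are given for single genes, without adjustment over genes. *Fjx1* was lower in embryos of both mothers, by log2 differences of −0.57 in B6 × F1 and −0.45 in F1 × B6.

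*Ccdc34*, a coiled-coil gene 4.62 Mb from *Rcn1* (chr2:109857974-110013517), was the most abundant of the 4 and rose. It ranged from 186 to 3381 RPM with a median of 429 in heterozygous embryos and from 154 to 1168 RPM with a median of 369 in B6/B6 embryos. The log2 difference reached 0.34 ± 0.068 (SE), a fold of 1.27 (edgeR, adjusted p = 0.000910, permutation p = 3e-05). In embryos with at least 1000000 reads it was 0.25 ± 0.057 (SE; edgeR, adjusted p = 0.0127).

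*Cd59a*, which encodes an inhibitor of the complement membrane attack complex (chr2:103935958-103955511, at −1.304 Mb from *Rcn1*), ranged from 5.84 to 68.8 RPM with a median of 23.1 in heterozygous embryos and from 5.24 to 73.9 RPM with a median of 24.9 in B6/B6 embryos. The raw medians were close, and the log2 difference was −0.42 ± 0.088 (SE; edgeR, adjusted p = 0.00218, permutation p = 6e-05). It was −0.30 without covariates and not called, and −0.41 with lane as the only covariate (edgeR, adjusted p = 0.00462). *Dnajc24*, a J-domain protein of diphthamide synthesis 0.604 Mb from *Rcn1* and beyond *Elp4* (chr2:105806866-105843706), was the called gene nearest to *Pax6*. It ranged from 0 to 28.1 RPM with a median of 8.75 in heterozygous embryos and from 1.47 to 33.4 RPM with a median of 12.5 in B6/B6 embryos. Heterozygous embryos differed by −0.49 ± 0.12 (SE) on the log2 scale, a fold of 0.713 (edgeR, adjusted p = 0.0361, permutation p = 3e-05). Without 1 lane in turn, *Dnajc24* was called in 5 of 14 fits, with log2 differences from −0.55 to −0.44, while *Fjx1*, *Ccdc34* and *Cd59a* were called in all 14. None of the 4 was called within a flowcell, where log2 differences in flowcells 1 and 2 were −0.46 and −0.54 for *Fjx1*, 0.25 and 0.38 for *Ccdc34*, −0.48 and −0.36 for *Cd59a* and −0.34 and −0.60 for *Dnajc24*. Without lane and somite number as covariates, *Fjx1* was the only one of them called by edgeR. All 4 were called when siblings were compared with litter in place of lane.

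**Figure D2:**
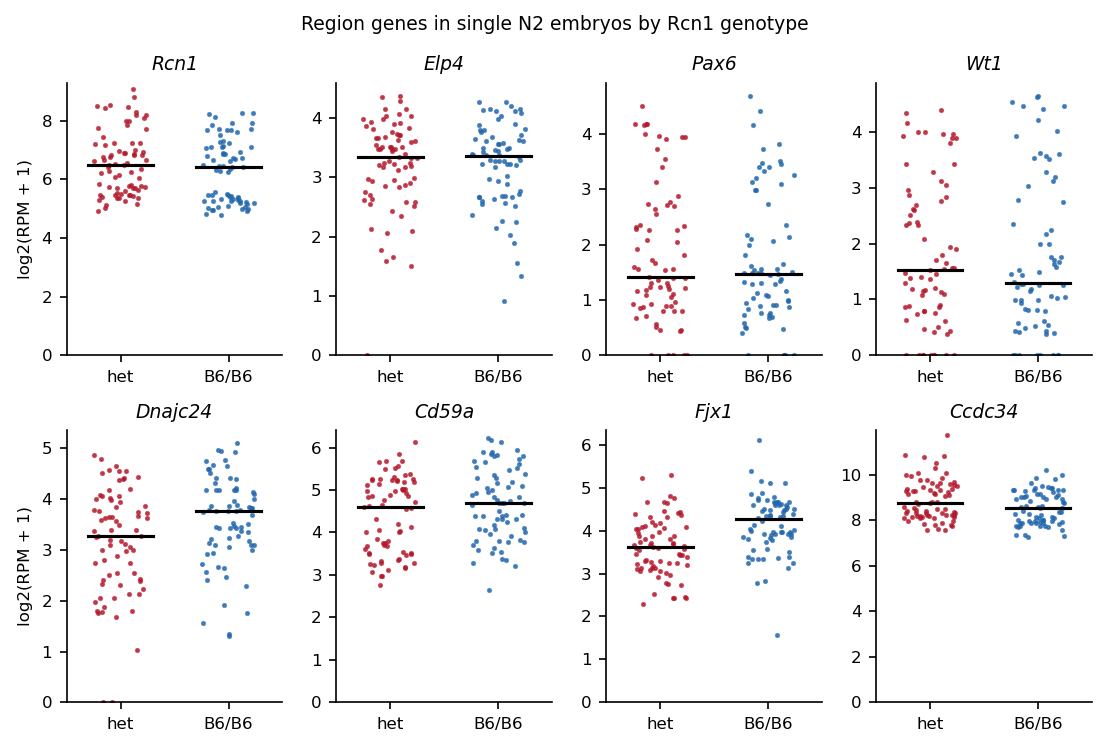
Each point is 1 embryo, on a log2(RPM + 1) axis, by *Rcn1* genotype (75 heterozygous, 72 B6/B6), without adjustment for lane, and black bars are medians. Medians are close for *Rcn1*, *Elp4*, *Pax6*, *Wt1* and *Cd59a*, lower in heterozygous embryos for *Fjx1* and *Dnajc24*, and all groups overlap.

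The other 24 region genes tested had log2 differences between −0.28 and 0.17, 16 of them below 0, and the median over the 28 was −0.10 beside −0.01 over all genes tested. Among the 10 smallest p of the region were *Apip*, an enzyme of methionine salvage, and *Pdhx*, a component of the pyruvate dehydrogenase complex, which are neighbours. *Apip* had medians of 43.4 and 44.0 RPM in heterozygous and B6/B6 embryos and a log2 difference of −0.28 ± 0.10 (SE; edgeR, adjusted p = 0.519). *Pdhx* had medians of 28.6 and 30.03 RPM and a log2 difference of −0.15 ± 0.068 (SE; edgeR, adjusted p = 0.780). *Fibin*, a secreted factor of the lateral plate mesoderm, *Hipk3*, a homeodomain-interacting kinase, and *Prr5l*, a partner of mTORC2, had log2 differences of −0.22, −0.25 and 0.16 with adjusted p of 0.780, 0.940 and 0.942 (edgeR).

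Of the 57 region genes, 29 lay below 5 RPM. Without the minimum the fit covered 28 of them and called 2, beside 0.236% of all 18658 genes. The first was *A930018P22Rik*, at −1.28 Mb from *Rcn1*, at a mean of 1.22 RPM in heterozygous and 0.204 RPM in B6/B6 embryos, where 15 of 75 and 51 of 72 embryos had no read. Its log2 difference was 2.15 ± 0.25 (SE; edgeR, adjusted p = 6.74e-11). The second was *Depdc7*, a DEP domain gene at −0.656 Mb from *Rcn1*, at a mean of 1.59 RPM in heterozygous and 0.732 RPM in B6/B6 embryos and a log2 difference of 1.03 ± 0.22 (SE; edgeR, adjusted p = 0.00557). No read was found in 24 of 75 and 39 of 72 embryos.

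Allele ratios in F1 embryos, which took no part in choosing the groups, addressed whether the region carries cis effects. BAF is the fraction of allele-specific reads that came from B6, and 8 B6 × Cast and 8 Cast × B6 embryos from 4 litters were tested against a BAF of 0.5 by an exact sign-flip permutation test. It called 5111 of 10611 genes, or 48.2%. Of the 36 region genes with enough votes, 16 were called, a share near that background, 11 with more B6 and 5 with more Cast expression. BAF of the region ranged from 0.135 to 0.717 with a median of 0.525, beside 0.4996 over all genes. *Ldlrad3* showed 33.9% Cast votes in B6/B6 embryos, so that its BAF cannot be read, and the median of the 36 genes was 1.04%.

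For a cis effect, BAF sets how far heterozygotes should differ from B6/B6 embryos in total expression, by −log2 of 2 × BAF. *Rcn1* had a BAF of 0.428 in F1 embryos (exact sign-flip test, adjusted p = 0.000172), from which a log2 difference of 0.23 is expected, next to the 0.17 measured. In N2 embryos heterozygous at *Rcn1*, 5048 votes gave a BAF of 0.414, and Cast votes were 0.137% of those in B6/B6 embryos, which describes the codes. *Elp4* had a BAF of 0.510 and was not called (exact sign-flip test, adjusted p = 0.621).

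*Dnajc24* had a BAF of 0.693 (exact sign-flip test, adjusted p = 0.000172), with an expected log2 difference of −0.47 beside −0.49 measured. *Fjx1* had a BAF of 0.655 (exact sign-flip test, adjusted p = 0.000172) with −0.39 expected and −0.51 measured. *Ccdc34* had a BAF of 0.430 (exact sign-flip test, adjusted p = 0.000905) with 0.22 expected and 0.34 measured. In these 3 genes both readouts point the same way. *Cd59a* differed: its BAF was 0.425 in F1 embryos and not called (exact sign-flip test, adjusted p = 0.231), with 0.23 expected and −0.42 measured. In heterozygous N2 embryos its BAF was 0.686 from 421 votes, and 7.89% of its votes in B6/B6 embryos were Cast, more than in any of the other 3.

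*Wt1* was also called in F1 embryos, with a BAF of 0.643 (exact sign-flip test, adjusted p = 0.000282) and an expected log2 difference of −0.36, next to the lower bound of −0.37 of the 95% interval of the measured value. In heterozygous N2 embryos 67 of 146 *Wt1* votes were B6, a BAF of 0.459 with a 95% Wilson interval of 0.380 to 0.540, on the other side of 0.5. *Pax6* had 44 votes over all F1 embryos, too few for the test, and 17 were B6, a BAF of 0.386 with an interval of 0.257 to 0.534. In heterozygous N2 embryos 11 of 18 *Pax6* votes were B6, with an interval of 0.386 to 0.797. These intervals cover counting error only. *Prr5l* had a BAF of 0.272, from which 0.88 is expected beside 0.16 measured, and *Apip* a BAF of 0.590 with −0.24 expected and −0.28 measured. *Fbxo3* and *B230118H07Rik* were called in F1 embryos, with BAF of 0.659 and 0.717 (exact sign-flip test, adjusted p = 0.000282 and 0.000172). For these, −0.40 and −0.52 are expected beside −0.03 and −0.17 measured.

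**Figure D3:**
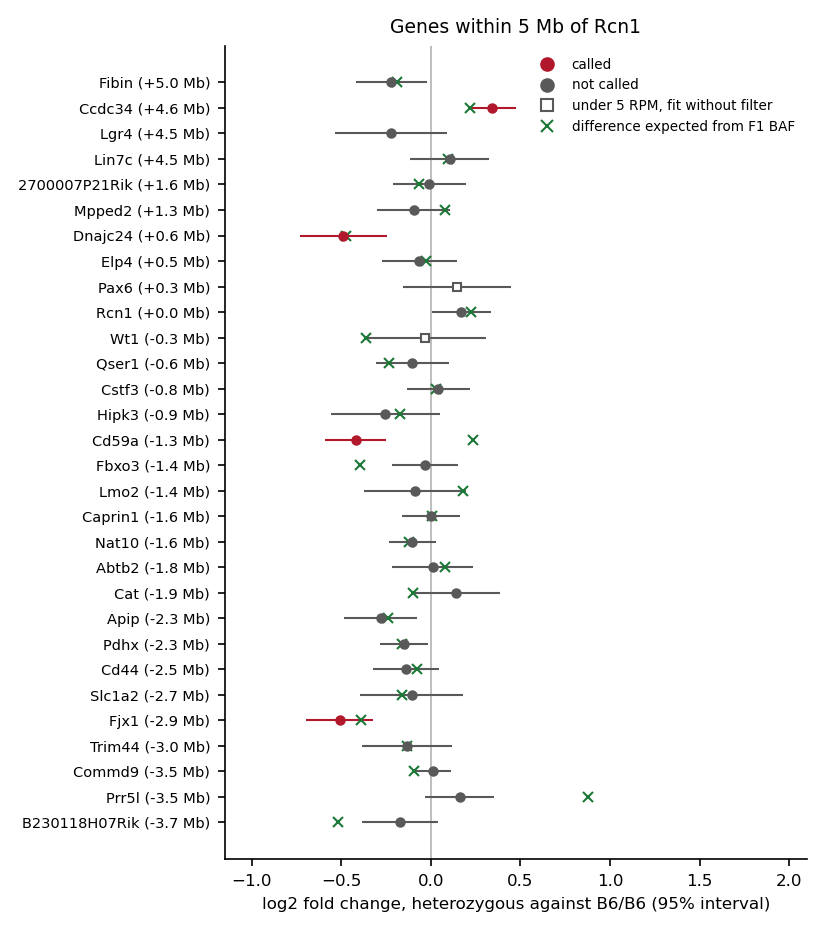
Log2 fold change by *Rcn1* genotype with its 95% interval for the 28 region genes tested and for *Wt1* and *Pax6* (open squares, under 5 RPM), ordered by distance from *Rcn1*, with crosses at the difference expected from F1 BAF. Of the genes with a cross, *Dnajc24*, *Fjx1*, *Apip* and *Rcn1* lie near it, and *Cd59a*, *Prr5l*, *Fbxo3* and *B230118H07Rik* far from it.

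Of 27 tested region genes with F1 votes, 22 had a measured difference of the sign that BAF gives (81.5%). Across these genes Pearson's r was 0.56 and Spearman's rho 0.65, as a description, since genes are not independent replicates and the same embryos enter each value. Of the 35 genes called anywhere on chromosome 2 that had F1 votes, 27 had the same sign (77.1%), with r of 0.64 and rho of 0.54, compared with 398 of 646 genes that were not called (61.6%).

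**Figure D4:**
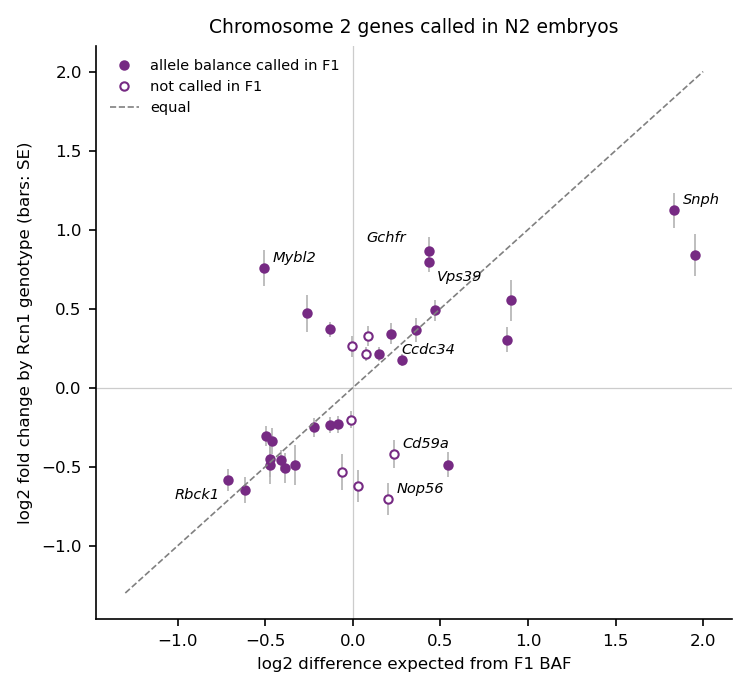
Measured log2 fold change by *Rcn1* genotype (bars, SE) against the log2 difference expected from F1 BAF, for the 35 called chromosome 2 genes with F1 votes, with a dashed line of equality. Most points share the sign of their expectation, and *Mybl2*, *Nop56* and *Cd59a* lie on the opposite side.

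Among genes at 5 RPM or more, the smallest p by *Rcn1* genotype lay outside the region. *Vps39*, a subunit of the HOPS complex of lysosome fusion 14.9 Mb away (95.5% same code), ranged from 20.5 to 248 RPM with a median of 153 in heterozygous and from 17.5 to 166 RPM with a median of 87.96 in B6/B6 embryos. Its log2 difference was 0.79 ± 0.062 (SE; edgeR, adjusted p = 4.88e-21), and 69 of 75 heterozygous embryos lay above the B6/B6 median. *Gchfr*, the feedback regulator of GTP cyclohydrolase 1 at 13.8 Mb, had medians of 24.02 and 13.6 RPM and a log2 difference of 0.87 ± 0.083 (SE; edgeR, adjusted p = 1.59e-15). *Snph*, syntaphilin, which anchors mitochondria in axons, had medians of 18.1 and 8.09 RPM at 46.2 Mb and a log2 difference of 1.12 ± 0.11 (SE; edgeR, adjusted p = 3.62e-14). All 3 had BAF under 0.5 in F1 embryos, of 0.370, 0.370 and 0.140, from which log2 differences of 0.43, 0.43 and 1.84 are expected. The measured differences had the same sign, but were larger than expected for *Vps39* and *Gchfr* and smaller for *Snph*.

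*Oip5*, a centromere protein at 14.2 Mb, rose by a log2 difference of 0.49, and *Ptpra*, a receptor tyrosine phosphatase at 25.04 Mb, by 0.37 (edgeR, adjusted p = 9.15e-08 and 1.39e-08). *Ptpra* had a BAF of 0.548 (exact sign-flip test, adjusted p = 0.0165), from which −0.13 is expected. *Rbck1*, a subunit of the linear ubiquitin ligase at 46.9 Mb, fell from a median of 113 RPM in B6/B6 to 69.5 RPM in heterozygous embryos, with a log2 difference of −0.59 ± 0.068 (SE; edgeR, adjusted p = 3.12e-11). *Hoxd4*, a homeobox gene of the hindbrain and axial skeleton on the other side of *Rcn1*, fell from a median of 61.2 to 34.5 RPM (log2 difference −0.67; edgeR, adjusted p = 3.10e-09), and *Hoxd3* overlaps it on the same strand. *Syt13*, a synaptotagmin, fell from a median of 12.9 to 8.09 RPM (log2 difference −0.65; edgeR, adjusted p = 3.20e-09).

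Like *Ptpra*, *Mybl2* and *Nop56* had the opposite sign to their F1 expectation. *Mybl2*, a cell cycle transcription factor at 57.6 Mb, had medians of 59.1 RPM in heterozygous and 27.3 RPM in B6/B6 embryos and a log2 difference of 0.76 ± 0.11 (SE; edgeR, adjusted p = 4.35e-07), but a BAF of 0.710, from which −0.51 is expected. *Nop56*, a core protein of box C/D small nucleolar ribonucleoproteins, had medians of 347 and 573 RPM and a log2 difference of −0.71 ± 0.10 (SE; edgeR, adjusted p = 2.29e-07), with a BAF of 0.435 that was not called. Of the called chromosome 2 genes, 8 had the opposite sign to their F1 expectation, 4 of which were called in F1 embryos.

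Recombination allowed a gene's own genotype to be set beside that of *Rcn1*. In linear models of log2(RPM + 1) with lane and somite number, the *Rcn1* genotype alone called 34 genes, 0.348% of 9762 autosomal genes. With a gene's own genotype added, the *Rcn1* term called 0 of 9756 genes, with 6 of 22 region genes, 44 of 792 on the rest of chromosome 2 and 639 of 8942 elsewhere at an unadjusted p under 0.05. The adjustment depends on the p of all genes, and a lost call does not show that a coefficient moved. The own genotype called 2075 genes, or 21.3%, in the same model. Of 36 called chromosome 2 genes with both terms, the own term was the larger in 28. For *Vps39* the own term was 0.91 ± 0.15 and the *Rcn1* term −0.03 ± 0.15 (SE), and for *Mybl2* they were 1.29 ± 0.099 and 0.005 ± 0.097. Within the region few embryos separate the terms: 4 for *Fjx1* and *Ccdc34*, 1 for *Cd59a* and 0 for *Dnajc24*, which therefore cannot be told apart from *Rcn1*. *Sh2d3c*, an adaptor protein gene at −72.7 Mb that was named after its values were seen, had an own term of 0.12 ± 0.066 and an *Rcn1* term of −0.24 ± 0.063 (SE), with 47 embryos that differed, and its BAF was 0.505. That *Rcn1* term had an adjusted p of 0.470 in the linear model. The main test called *Sh2d3c* (edgeR, adjusted p = 0.0438), but only 2 of 14 fits without 1 lane did.

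Candidate trans targets were sought on the other chromosomes. *Dnpep*, an aspartyl aminopeptidase (chr1:75304471-75314212), ranged from 32.6 to 382 RPM with a median of 220 in heterozygous and from 60.2 to 382 RPM with a median of 236 in B6/B6 embryos. The groups overlapped widely. The heterozygous embryo with the lowest *Dnpep*, 32.6 RPM, was the one with the highest *Ccdc34*, 3381 RPM. In the B6/B6 embryo with the lowest *Dnpep*, 60.2 RPM, *Ccdc34* was at 1003 RPM. The 2 genes therefore share outlying embryos, and the cause was not tested. The log2 difference of *Dnpep* was −0.22 ± 0.049 (SE), a fold of 0.860 (edgeR, adjusted p = 0.00790). Permuted genotypes gave an unadjusted p = 3e-05. That value comes from the same embryos, in a gene named for its small p, and is no separate support. The difference was −0.26 in B6 × F1 and −0.17 in F1 × B6 embryos. In the linear model, the *Rcn1* term of *Dnpep* was −0.25 ± 0.054 (SE) both alone and with its own genotype added, with an unadjusted p of 1.09e-05 and 1.2e-05 and an adjusted p of 0.00508 and 0.120. Its own genotype had a coefficient of 0.02 and its BAF was 0.498 in F1 embryos, and 46.1% of embryos shared the code of *Rcn1*. *Dnpep* was called in 13 of 14 fits without 1 lane and had an adjusted p of 0.0607 without lane J. The call was lost with litter in place of lane (edgeR, adjusted p = 0.196, log2 difference −0.22), with litter as a random effect (limma voom, adjusted p = 0.334, log2 difference −0.20) and in embryos with at least 1000000 reads (edgeR, adjusted p = 0.110, log2 difference −0.14). In flowcells 1 and 2 the log2 differences were −0.14 and −0.25.

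*Prdx1*, a peroxide-reducing peroxiredoxin (chr4:116358149-116373427), ranged from 7.77 to 640 RPM with a median of 59.5 in heterozygous and from 8.71 to 1180 RPM with a median of 43.2 in B6/B6 embryos. The log2 difference was 0.89 ± 0.22 (SE; edgeR, adjusted p = 0.0333, permutation p = 0.00479). *Leo1*, a subunit of the PAF1 transcription elongation complex (chr9:75289331-75314239), ranged from 15.4 to 322 RPM with a median of 62.7 and from 20.2 to 369 RPM with a median of 50.5. The log2 difference was 0.43 ± 0.11 (SE; edgeR, adjusted p = 0.0362, permutation p = 0.00249). In the linear model with *Rcn1* genotype alone neither was called, with terms of 0.52 ± 0.19 and 0.34 ± 0.11 (SE; adjusted p = 0.361 and 0.285). In embryos with at least 1000000 reads both were called, with log2 differences of 1.03 and 0.45 (edgeR, adjusted p = 0.00464 and 0.0269). Each was called in 6 of 14 fits without 1 lane, with adjusted p up to 0.187 for *Prdx1* and 0.180 for *Leo1* in the others. With litter in place of lane, *Leo1* was called and *Prdx1* was not (edgeR, adjusted p = 0.00864 and 0.0527). With litter as a random effect neither passed (limma voom, adjusted p = 0.334 and 0.226), and the log2 differences in flowcells 1 and 2 were 1.35 and 0.52 for *Prdx1* and 0.49 and 0.47 for *Leo1*.

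**Figure D5:**
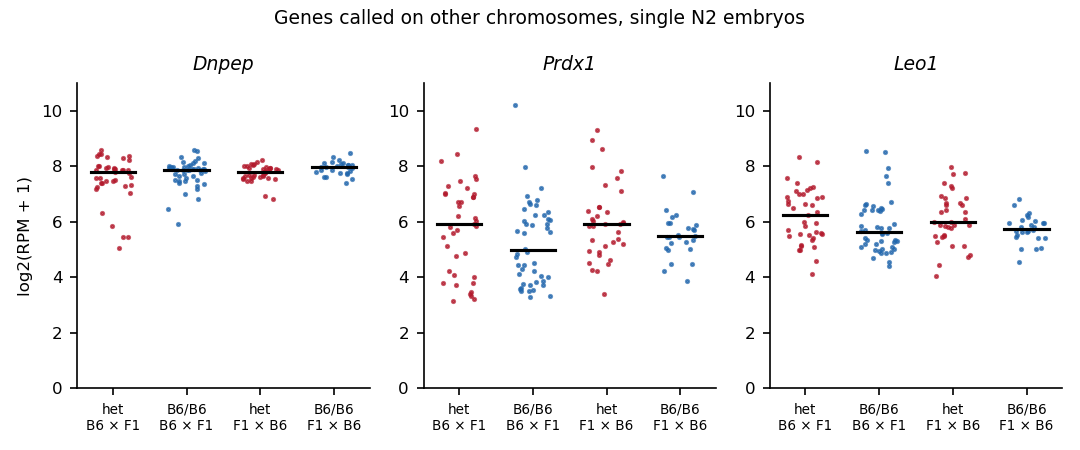
Single embryos on a log2(RPM + 1) axis for the 3 genes called on other chromosomes, by *Rcn1* genotype and cross, with black bars at medians and no adjustment for lane. *Dnpep* medians are slightly lower and *Prdx1* and *Leo1* medians higher in heterozygous embryos of both crosses, with wide overlap.

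The next 7 genes on other chromosomes did not pass the threshold. *Thyn1* had a log2 difference of 0.42, *Cmtm6* 0.41, *Mtap7d2* 0.32 and *Ecsit* 0.16, and *Zfp282* −0.23, *Dcakd* −0.22 and *Aamp* −0.18, with adjusted p of 0.0600 to 0.136 (edgeR). *Cmtm6* was called with litter in place of lane (edgeR, adjusted p = 0.00628). With litter as a random effect it was called too (limma voom, adjusted p = 0.0367). It passed in embryos with at least 1000000 reads, but not with lane as the only covariate (edgeR, adjusted p = 0.0167 and 0.196). *Aamp* and *Dnpep* had the same code in 100% of embryos, as had *Thyn1* and *Ecsit* on chromosome 9, so these pairs share their own genotypes. None of these 10 genes had an alignment of its longest annotated transcript to chromosome 2 by minimap2, whereas *Rcn1* and *Ccdc34*, aligned in the same way, were each found on it. These 2 matched their own loci at 100% identity. Whether a short or diverged copy would be found was not tested.

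The genotype difference was compared between mothers with an interaction term. The Cast allele came from the father in B6 × F1 and from the mother in F1 × B6 embryos. Genotype of the mother and parental origin of the Cast allele therefore cannot be told apart by this term. The interaction called 0 of 10040 genes by edgeR and 0 by limma voom, while 838 and 1029 genes had an unadjusted p under 0.05. Among genes named here the smallest was at *Pax1*, a paired-box gene of the sclerotome on chromosome 2, with log2 differences of 0.50 in B6 × F1 and −0.01 in F1 × B6 embryos (edgeR, unadjusted p = 0.00828).

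Genes of the pathways in which the locus takes part were then examined, from lists made with earlier results of these data known. Of 26 lens genes, in which crystallins are targets of *Pax6*, 9 reached the minimum. Of these, 0 were called, beside 0.398% of all genes, and 7 had a positive log2 difference. The median was 0.17 beside −0.01 over all genes. *Cryga*, a gamma-crystallin, had medians of 2.09 RPM in heterozygous and 0.778 RPM in B6/B6 embryos and a log2 difference of 0.77 ± 0.26 (SE; edgeR, adjusted p = 0.355). *Cryaa*, alpha-crystallin A, had medians of 18.4 and 13.5 RPM and a log2 difference of 0.33 ± 0.14 (SE; edgeR, adjusted p = 0.728). Without the minimum, *Crygf* was called, at a mean of 0.203 RPM in heterozygous and 0.0533 RPM in B6/B6 embryos, with no read in 53 of 75 and 65 of 72 embryos (edgeR, adjusted p = 0.0483). The summed lens markers had medians of 71.1 and 58.4 RPM, with ranges of 15.9 to 237 and 17.5 to 178 RPM.

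Of 9 eye field and retina factors tested, 1 was called, *Meis2*, a TALE homeobox gene, beside 0.398% of all genes and 4.51% of those on chromosome 2. It lies on chromosome 2 at 10.7 Mb from *Rcn1*, where 95.5% of embryos had the same code. Medians were 33.02 RPM in heterozygous and 21.6 RPM in B6/B6 embryos and the log2 difference was 0.47 ± 0.12 (SE; edgeR, adjusted p = 0.0361), with a BAF of 0.5999 from which −0.26 is expected. It was called in 6 of 14 fits without 1 lane, with adjusted p up to 0.196 in the others (edgeR). With its own genotype added, the own term was 0.49 ± 0.29 and the *Rcn1* term 0.002 ± 0.29 (SE). Only 7 embryos separate these terms, so both are imprecise. *Pax2*, of the optic stalk and kidney, had a log2 difference of −0.12 (edgeR, adjusted p = 0.978).

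None of 18 neural progenitor genes, 5 endocrine pancreas genes, 3 *Pax* family genes and 16 *Wt1* targets or partners tested was called. The share called over all genes was 0.398%, so that the absence of a call in lists this short says little about these pathways. *Cdk4*, a kinase of the G1 phase, had the smallest p of the neural genes with a log2 difference of −0.17, *Hes1*, a Notch target, had 0.14 (edgeR, adjusted p = 0.443 and 0.979). *Pcsk2*, a prohormone convertase of endocrine cells on chromosome 2, had −0.18 (edgeR, adjusted p = 0.855). *Pax1* had 0.29 (edgeR, adjusted p = 0.365). Of the *Wt1* genes, *Aldh1a2*, the retinoic acid synthesis enzyme, had −0.26 and *Six2*, of nephron progenitors, −0.09 (edgeR, adjusted p = 0.953 and 0.967). Medians of these 4 lists lay between −0.07 and −0.01.

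Partners of the other region genes were also tested. None was called among the 4 CREC relatives of *Rcn1*, 4 Elongator subunits, 12 eIF3 subunits, 13 cleavage and polyadenylation factors, 10 partners of *Caprin1*, 8 pyruvate dehydrogenase genes and 8 partners of *Lmo2*. With 0.398% called over all genes, lists this short would rarely hold a called gene. Medians of these lists lay between −0.11 and 0.03. In the CREC family, *Rcn2* had a log2 difference of −0.11 and *Rcn3* −0.04, and among Elongator subunits *Ikbkap* had 0.10 and *Elp2* 0.05. *Eif3a* had 0.28 and *Eif3j* −0.25, *Pcf11* −0.31 and *Wdr33* −0.08, and *Pabpc1* −0.32 and *Usp10* −0.10. *Pdp2* had −0.25 and *Pdk1* −0.11, and *Ldb1* −0.14 and *Tcf3* −0.10. The adjusted p of these genes lay between 0.852 and 0.999 (edgeR). Of 17 tested genes listed by their place around *Pax6*, 1 was called, *Dnajc24*. The shares called were 0.398% over all genes, 4.51% on chromosome 2 and 14.3% in the region.

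Markers of the tissues in a whole embryo were summed to see whether its makeup moved with genotype. Erythroid markers had medians of 78164 RPM in heterozygous and 88934 RPM in B6/B6 embryos, with ranges of 37326 to 194131 and 30448 to 194816 RPM. Medians were 1272 and 1168 RPM for liver, 1476 and 1388 RPM for neuron, 655 and 660 RPM for neural progenitor, 2027 and 2021 RPM for muscle, and 65.6 and 71.4 RPM for mesothelium markers. Trophoblast markers had a median of 0 RPM in both groups and reached 22.9 and 10.8 RPM, and 6 of 12 were at 0 in all embryos. None of the marker genes tested was called, beside 0.398% of all genes. Fewer cells of a type and less RNA per cell cannot be told apart in whole embryos.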

How the data were processed

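Whole E11.5 embryos were profiled by 3SEQ. The authors trimmed reads, mapped them with Bowtie2 (version not given in the sources used here) to mm9 and to an in-silico Cast genome, removed repetitive reads, and deposited raw counts of reads on the exons of each RefSeq gene. They also deposited allele votes, estimated counts in which each read is split over its SNPs, and genotype codes from a hidden Markov model, in which 0.0 was read as not called. Mother, litter, lane and somite number came from the labels. Of 168 N2 columns, 8 whose labels name no mother and 6 embryos without genotypes were not used. Coordinates are from GENCODE for mm9. The members, lists and tests were chosen with earlier results of these data known.

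Counts were normalized by TMM and tested with edgeR 4.0.16 (R 4.3.3), with lane and somite number as covariates. Alternatives used DESeq2 1.42.0 and limma 3.58.1. Named genes were also tested with 100000 permutations of codes within lanes, two-sided, on log2(RPM + 1). These p-values were not adjusted over genes, nor for naming genes by a small p in the same embryos. F1 BAF was tested by an exact two-sided sign-flip test over genes with at least 20 votes per cross. Transcripts were aligned with minimap2. Scripts were tested on simulated data. Named were *Rcn1*, *Wt1*, *Pax6* and *Elp4*, the called and 10 smallest p of the region, the 10 smallest p of the rest of chromosome 2 and of other chromosomes, and 2 genes per list. Some genes of the lists are not reported here. Genes under 5 RPM, *Sh2d3c*, *Ldlrad3*, *Fbxo3* and *B230118H07Rik* were named after their values were seen. Embryos are separate animals that share litters. At the median depth, 5 RPM is 11.5 reads per embryo, so that single embryos are imprecise for low genes, and counting intervals cover counting error only.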

Additional observations from a re-analysis of the deposited data

Results flagged for a closer look

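Among 42 groups of 8 F1 embryos examined for an outlying BAF, 4 had one. Chance flags about 1 in 20 such groups. In B6 × Cast, 1 embryo had a *Ccdc34* BAF of 0.25, from 12 votes, beside 0.406 to 0.538 in the others, and in Cast × B6, 1 embryo had 0.5, from 16 votes, beside 0.396 to 0.444. For *Fibin*, 1 B6 × Cast embryo had a BAF of 0.333, from 18 votes, beside 0.491 to 0.579. For *Vps39*, 1 B6 × Cast embryo had a BAF of 0.413, from 2051 votes, beside 0.339 to 0.369. The cause was not tested.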

How the results depend on the processing

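By replicate number, no paired analysis was possible because these numbers only name embryos. Siblings from the same litter could be compared: with litter in place of lane 28 genes were called on chromosome 2, 4 of them in the region, and 2 elsewhere, and with litter as a random effect 27, 4 and 1. The main test called 37 genes on chromosome 2, 4 of them in the region, and 3 on other chromosomes. On chromosome 2 it called 15 genes without covariates (1 in the region), 68 with the rank-sum test after 15 principal components, 18 in B6 × F1 embryos (2 in the region), 7 in F1 × B6 embryos (0), 17 in flowcell 1 (0) and 12 in flowcell 2 (0). A minimum of 20 RPM left 2 in the region. On other chromosomes the count was 6 without a minimum, 7 by DESeq2, 8 with *Xist* added, 12 after 15 principal components, 0 without covariates, in embryos of either mother and in flowcell 1, and 1 in each of flowcell 2, voom with litter as a random effect, the rank-sum test on residuals, limma at both pseudocounts, embryos without recombination and an adjusted p under 0.01. With 1 lane left out in turn, 26 to 39 genes were called on chromosome 2, 3 to 4 in the region and 1 to 5 elsewhere, with 1 elsewhere without lane B, C, D, G, I, K or L and 5 without lane F. The F1 test called 16 region genes, and 13 to 17 without 1 litter in turn. The interaction called 0 under both tools. Subsets have fewer embryos, and other causes were not tested.

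With own genotype added, the *Rcn1* term called 0 genes in place of 34, although the coefficient of *Dnpep* stayed at −0.25. The *Rcn1* term of that model was −0.033 ± 0.15 for *Vps39*, −0.21 ± 0.15 for *Oip5*, 0.18 ± 0.17 for *Nop56* and −0.11 ± 0.26 for *Prr5l* (SE). These signs are opposite to the main log2 differences, whereas the own terms, 0.91, 0.73, −1.07 and 0.25, keep them. The log2 difference itself reversed for *Rcn1* in F1 × B6 embryos (−0.050), and for *Elp4* in F1 × B6 embryos (0.14) and flowcell 1 (0.048). *Fjx1*, *Ccdc34* and *Cd59a* lost their call in 4, 5 and 6 alternatives, *Dnajc24* in 18, *Dnpep* in 10, *Prdx1* in 23 and *Leo1* in 24. The cause was not tested.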

Other observations

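Without the minimum of 5 RPM, 9 genes were called that the main test did not cover, and they were named after their values were seen. The clearest outside the region was *a*, the agouti gene of coat pigmentation, in which B6 carries the nonagouti allele, 49.4 Mb from *Rcn1*. It ranged from 0 to 26.2 RPM with a median of 4.19 in heterozygous and from 0 to 10.3 RPM with a median of 1.25 in B6/B6 embryos. Its log2 difference was 1.25 ± 0.16 (SE; edgeR, adjusted p = 5.89e-09), and its BAF in F1 embryos was 0.0968. The annotation places *Raly* and *Eif2s2* within the same span.

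*Pla2g4e*, a cytosolic phospholipase, had means of 0.464 RPM in heterozygous and 0.128 RPM in B6/B6 embryos with a BAF of 0.0874, and *Lrrn4* means of 2.41 and 1.54 RPM with a BAF of 0.175. *Lpcat4*, a lysophospholipid acyltransferase, fell from 2.48 to 1.32 RPM. On other chromosomes, *LOC100233207* had reads in 10 of 75 heterozygous and 0 of 72 B6/B6 embryos. *Prap1* had a mean of 1.84 RPM in B6/B6 embryos, where 1 embryo reached 93.1 RPM, and 0.353 RPM in heterozygous embryos, and permuted genotypes gave p = 0.208.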
